A study of Mus musculus and Homo sapiens with 59 samples.

Results

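The comparison described here is AP20187 against no treatment in NIH3T3 cells, a mouse embryonic fibroblast line, that carry an MLKL construct and were kept in complete medium. It holds 4 of the 59 libraries of a study of signalling after loss of plasma membrane integrity, chosen by their labels: 2 AP20187 libraries and 2 untreated libraries. All 4 came from cells with the construct hMLKL1–181-2Fv, an amino-terminal piece of human MLKL joined to dimerization domains, grown in DMEM. The treated cells received AP20187, a ligand that brings such domains together, at 100 nM for 1 h, and the untreated cells received none. Parental NIH3T3 cells without a construct, in DMEM, gave 2 libraries with the same AP20187 exposure and 2 untreated libraries, which serve as a check of the ligand. A pair of further sets, labelled siCTR and noko, carry the same construct, medium and AP20187 exposure with 2 libraries per group and share no library with the 4. By their titles they stand as controls beside sets titled siPKC and p65ko, so their handling may differ from that of the 4. The labels say neither how the construct was delivered or expressed nor whether the cells are 1 clone.

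MLKL is the executioner of necroptosis. In the cell it is phosphorylated by RIPK3, oligomerizes and permeabilizes the plasma membrane, and a fused dimerization domain lets a ligand start the last steps without an upstream death signal. Permeabilized cells let calcium in and lose potassium, and cells stressed in this way are known to switch on immediate early transcription factors, MAP kinase and NF-kB signalling within the hour. Fibroblasts are also a source of cytokines, matrix proteins and proteases that act on neighbouring cells.

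Polyadenylated RNA was sequenced and given as TPM, a measure of transcript abundance that is corrected for transcript length and for the total of the library. Fold changes are differences of log2(TPM + 1), which understate the change of genes with low levels, and are given with their standard error (SE). A gene rose or fell where its Benjamini-Hochberg adjusted p in limma was under 0.05. This linear model is fitted to each gene, with the estimate of its spread moderated over all genes. TPM keep no sequencing depth, so counting error cannot be given. Whether replicates came from separate cultures is not stated in the labels. The p-values therefore cover only the spread between replicate libraries, pooled over all 35 NIH3T3 libraries in 18 groups, which may be technical. Log2 levels of replicates correlated at 0.991 and 0.992 across genes, which are not independent replicates. The construct is human and has no row in the mouse table, so its level could not be checked. Mouse Mlkl itself lay at 59.1 and 57.9 TPM with AP20187 and at 66.2 and 62.3 TPM without (limma, adjusted p = 0.0813). With each library centred on its median or quantile normalized, it passed as lower, at log2 fold changes of -0.15 and -0.16 (limma, adjusted p = 0.0437 and 0.0208).

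Of 11644 genes tested, 1838 rose (15.8%) and 1919 fell (16.5%) after AP20187, and the rises were the larger. The AP20187 and untreated libraries did not overlap for 7525 of the 11644 (64.6%). All 1838 rises and all 1919 falls were among these, so non-overlap of such a gene is no further evidence. The shares of 15.8% and 16.5% are the background for every list count below. At least 2-fold, 170 genes rose (1.46%) and 29 fell (0.249%). Fitted on these 4 libraries alone, 1109 genes rose and 978 fell. Without untreated replicate 2, 1131 fell, and 16 of them at least 2-fold. Among the 170 genes were 28 of the 31 tested members of a list of best known immediate early genes, all 31 of which rose (median log2 fold change 2.72, against -0.02 over all genes tested). Another 15 were rows of small noncoding RNAs, such as Snord19, whose replicates were uneven at 51.6 and 21.7 TPM with AP20187, against 0 and 3.91 TPM untreated. The remaining 127 genes are the subject of what follows, with the lower genes and the functional lists.

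In parental cells the same ligand carried few genes past the threshold. There, 2 of 11504 genes passed as higher (0.0174%) and 33 as lower (0.287%), and 724 lay at an unadjusted p under 0.05. The response with the construct differed from the parental response, in the direction of the change, for 1388 of the 1838 genes that rose. It did so for 923 of the 1919 genes that fell. At least 2-fold, it did so for 160 of the 170 rises and 22 of the 29 falls. For the rest no such difference passed. Over all genes tested, a difference in either direction passed for 20.5%. Of the 170 genes that rose at least 2-fold with the construct, 154 were tested in parental cells, where none passed as higher and 20 passed as lower. Among the 20, Inhba changed by -0.48, Plk3 by -0.43 and Ccl2 by -0.41, each opposite to its rise with the construct. These calls were fragile: between 9 and 19 genes passed as lower when any of the 4 parental libraries was left out. Fitted on the parental libraries alone, 1 gene passed as higher and 4 as lower, and Inhba, Plk3 and Ccl2 did not pass. Cebpd, a C/EBP transcription factor gene, is an exception: it fell with the construct, at 50.6 and 62.7 TPM against 91.3 and 93.8 TPM, and also in parental cells, by 0.44 on the log2 scale. The parental call was lost without AP20187 replicate 2 (-0.32) or without either untreated parental library (-0.47 and -0.41).

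**Figure D1:**
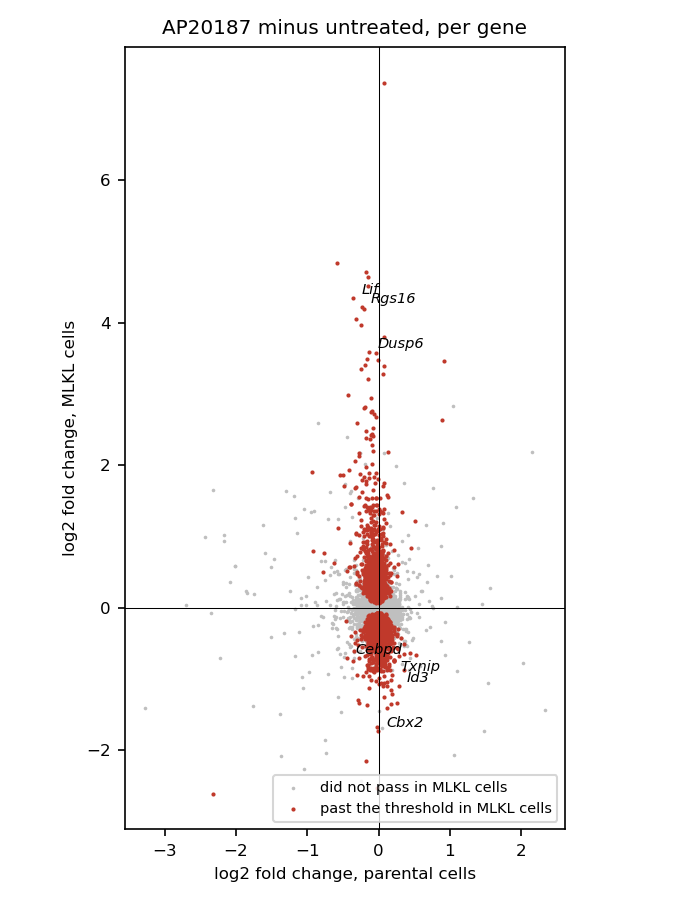
Each point is a gene tested in both cell types, with its log2 fold change (AP20187 minus untreated) in cells with the MLKL construct on the vertical axis and in parental cells on the horizontal axis. Points past the threshold with the construct (red) spread along the vertical axis, with Lif at 4.34 and Cbx2 at -1.73. Their parental fold changes run between -2.32 and 0.92.

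Secreted ligands were prominent among the rises. Of 40 growth factor, cytokine and chemokine genes tested, 26 rose and 2 fell, with a median of 0.61, and 16 rose at least 2-fold. Leaving out AP20187 replicate 1 or untreated replicate 1 left 1 fall, as did the fit on the 4 libraries alone. Among cytokines of the IL-6 family, Lif and Clcf1 had the higher levels. Lif, which signals through the shared receptor chain gp130, lay at 154 and 158 TPM with AP20187 and at 6.34 and 7.19 TPM untreated, a log2 fold change of 4.34 ± 0.074 (SE; limma, adjusted p = 2.06e-21). It spans chr11:4257557-4272514 (+) in mm10. Clcf1, a second cytokine of the family, reached 428 and 453 TPM, against 63.1 and 64.9 TPM in untreated cells (2.76 ± 0.037). The table also holds a readthrough row, Clcf1-pold4, at 10.7 and 15.2 TPM against 4.35 and 3.74 TPM, so reads of the last exons may be split between the rows. For both genes the groups did not overlap, which is true of every gene that rose.

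Of the EGF receptor ligands in the list, Ereg and Hbegf rose, Btc did not pass, and Areg and Tgfa were too low to be tested. Ereg (epiregulin) lay at 162 and 150.3 TPM with AP20187 and at 14.0 and 14.7 TPM untreated (3.35 ± 0.046), and Hbegf, a ligand shed from the cell surface, at 87.1 and 83.4 TPM against 6.56 and 6.95 TPM (3.48 ± 0.062). Neither overlapped between groups, which held for all 1838 genes that rose. Inhba, which encodes the activin A subunit, had 120.5 and 119.9 TPM with AP20187, against 35.4 and 37.0 TPM untreated (1.70 ± 0.067). Il11, another gp130 cytokine, had 20.2 and 19.7 TPM against 8.52 and 8.50 TPM (1.14 ± 0.11), and Vegfa, the angiogenic factor, 181 and 190.3 TPM against 106 and 105.9 TPM (0.80 ± 0.039). Il6 was low in both groups, at 4.88 and 4.85 TPM with AP20187 and 0.702 and 0.752 TPM untreated (1.76 ± 0.22). Fgf2, a fibroblast growth factor, overlapped between groups, at 16.68 and 18.26 TPM against 17.98 and 16.99 TPM.

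**Figure D2:**
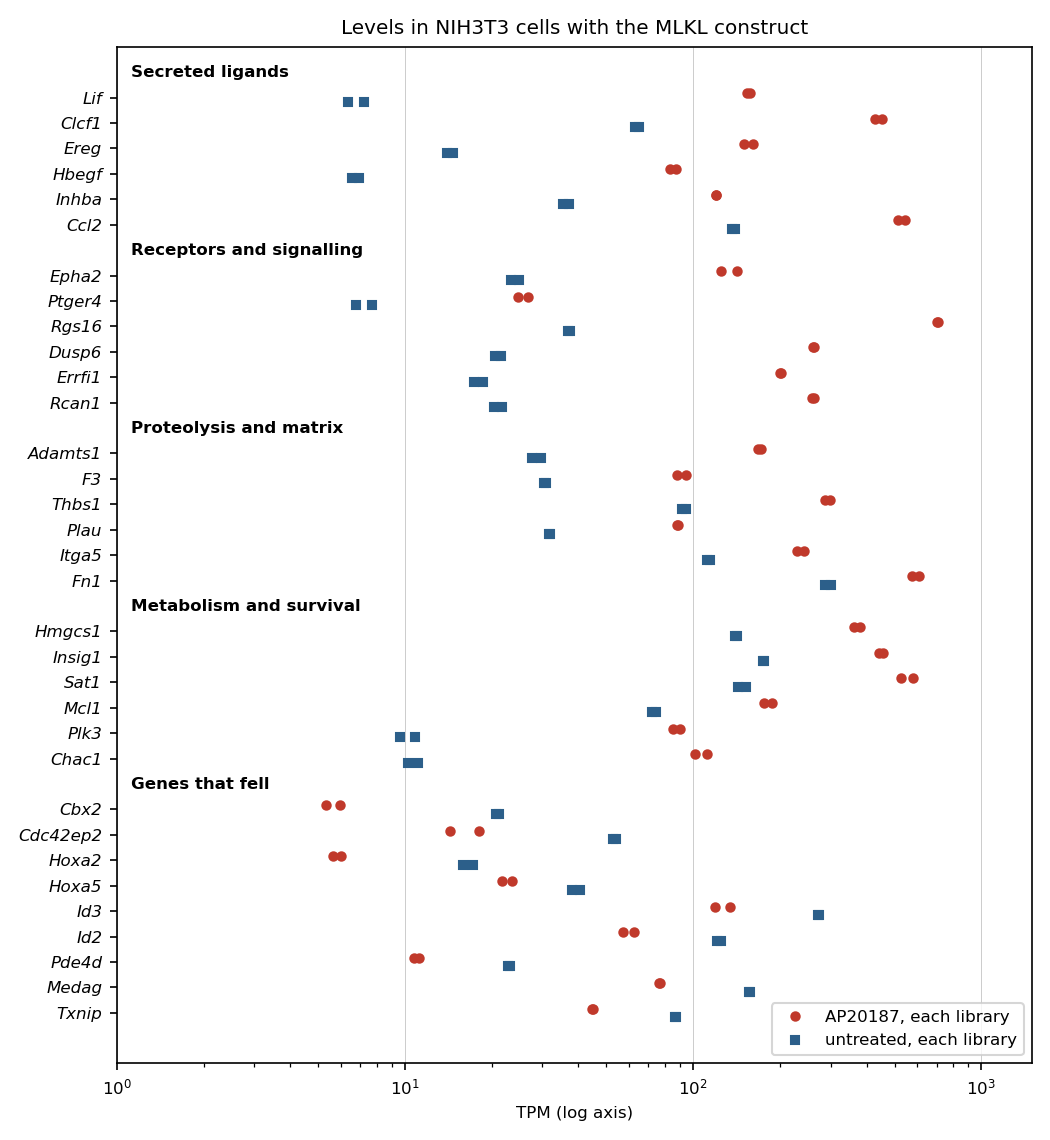
TPM (log axis) of selected genes in each of the 2 AP20187 libraries (red circles) and 2 untreated libraries (blue squares) of cells with the MLKL construct. The groups do not overlap for any gene drawn, as for 64.6% of all genes tested, and non-overlap was a condition for naming the largest changes; Cbx2, Cdc42ep2, Hoxa2, Hoxa5, Id3, Id2, Pde4d, Medag and Txnip lie lower with AP20187.

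Receptor genes had a smaller median: of 44 tested, 20 rose and 5 fell, with a median of 0.11, where 15.8% and 16.5% of all genes did. Fitted on the 4 libraries alone 12 rose and 2 fell, and 2 fell without AP20187 replicate 1 or without untreated replicate 2. Epha2, a receptor tyrosine kinase for ephrins, stood out with 125 and 142 TPM in AP20187 libraries and 23.4 and 24.8 TPM in untreated ones (2.42 ± 0.053; limma, adjusted p = 2.03e-19). The prostaglandin E2 receptor gene Ptger4 lay at 24.6 and 26.8 TPM against 6.75 and 7.67 TPM (1.70 ± 0.075). Tnfrsf12a, the receptor of the cytokine TWEAK, lay at 561 and 592 TPM with AP20187 and was already high untreated, at 379.9 and 388 TPM (0.59 ± 0.049). Igf2r, which takes up mannose-6-phosphate-bearing enzymes, rose by 0.58.

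Genes of pericellular proteolysis and coagulation rose widely: 14 of 23 tested rose and none fell, with a median of 0.50. Adamts1, a secreted metalloprotease that cleaves proteoglycans, had 168 and 171 TPM with AP20187, against 27.7 and 29.8 TPM untreated (2.52 ± 0.037; limma, adjusted p = 1.41e-22). Plau, the urokinase that activates plasminogen, had 88.8 and 88.1 TPM against 31.6 and 31.9 TPM (1.45 ± 0.039). The urokinase receptor gene Plaur rose with it, at 204 and 225 TPM against 125.3 and 125.1 TPM (0.77 ± 0.044). F3, the tissue factor that starts coagulation, had 94.4 and 87.7 TPM against 30.8 and 30.3 TPM (1.54 ± 0.061). Has2, a hyaluronan synthase, had 111 and 102 TPM against 32.3 and 32.2 TPM (1.69 ± 0.050), and Thbs1, the matricellular protein thrombospondin 1, 287 and 299 TPM against 91.2 and 94.2 TPM (1.65 ± 0.043). The groups did not overlap for these genes, as for every gene that rose.

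Matrix and adhesion genes shifted in the same direction by smaller amounts. Of 22 collagen genes tested, 14 rose and none fell, with a median of 0.23. In the siCTR and noko sets, without centring, none rose, and 9 of 20 and 13 of 22 fell, with medians of -0.12 and -0.21, where all genes tested had medians of -0.19 and -0.22. The rises in the MLKL cells were led by Col6a3 at 72.4 and 75.7 TPM against 46.1 and 46.7 TPM (0.66 ± 0.041). Col1a1 lay at 239 and 283 TPM against 182 and 187 TPM (0.49 ± 0.064). In the siCTR and noko sets, without centring, 2 and 2 of 16 integrin genes rose and 7 and 5 fell. In the MLKL cells 6 of 16 rose and none fell. Itga5, a fibronectin receptor subunit, had 229 and 242 TPM against 112 and 115 TPM (1.05 ± 0.035), and its ligand gene Fn1 had 574 and 609.8 TPM against 286 and 301 TPM (1.01 ± 0.041). Vim, the intermediate filament gene that marks fibroblasts, was abundant in all 4 libraries and rose by 0.26. Fibroblast markers summed to 17244 and 16834 TPM with AP20187 and to 16090 and 16038 TPM untreated, and 7 of 13 tested rose. The 9 macrophage markers in the table summed to 45.6 and 50.5 TPM against 24.6 and 24.6 TPM, and 4 of them were tested. Cd14 rose, with 32.5 and 36.4 TPM against 12.8 and 13.6 TPM, and the other 3 did not pass. Csf1r lay under 2 TPM throughout, 1 macrophage marker was at 0 in all 4 libraries, the 2 endothelial markers tested did not pass, and no epithelial marker reached the filter.

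**Figure D3:**
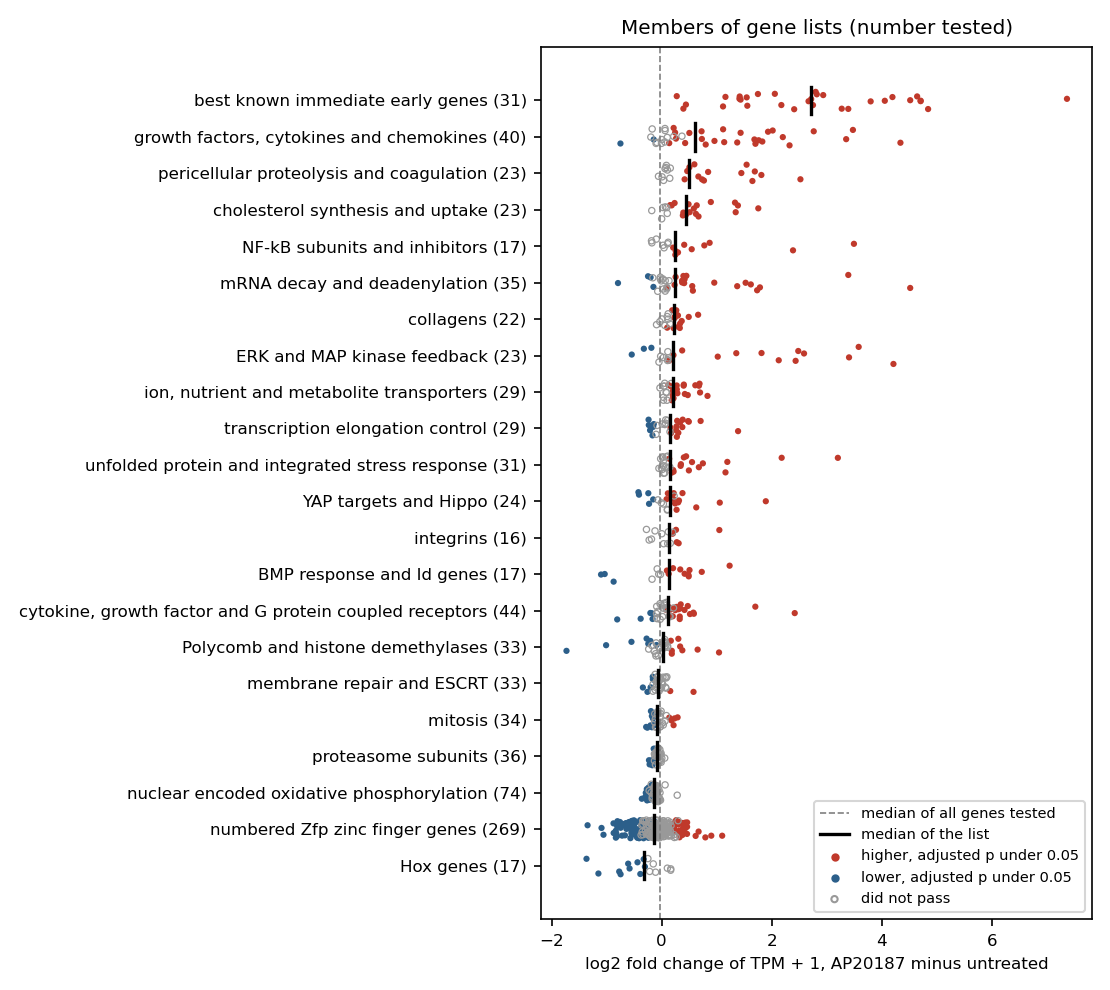
Log2 fold changes (AP20187 minus untreated) of the tested members of 22 gene lists, with the number tested in parentheses; black bars are list medians and the dashed line is the median of all genes tested. The best known immediate early genes lead with a median of 2.72, and Hox genes are lowest with a median of -0.33.

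Many genes from lists of signalling feedback and NF-kB rose as well, though signalling itself was not measured. Of 23 genes of ERK and MAP kinase feedback, 13 rose and 3 fell, with a median of 0.22, and 10 rose at least 2-fold. Rgs16, which speeds the shut-off of G proteins, lay at 709 and 702 TPM with AP20187, against 37.5 and 36.7 TPM untreated (4.21 ± 0.036; limma, adjusted p = 2.76e-26); it spans chr1:153740349-153745468 (+) in mm10. Spry2, an inhibitor of receptor tyrosine kinase signalling, had 161 and 166 TPM against 26.7 and 26.1 TPM (2.59 ± 0.043), and its relative Spry4 had 7.58 and 9.21 TPM against 0.642 and 0.825 TPM (2.43 ± 0.074). Socs3, which limits signalling by gp130 cytokines such as Lif, had 42.6 and 48.3 TPM against 14.8 and 15.2 TPM (1.54 ± 0.068). The kinase gene Pim3 had 39.7 and 45.9 TPM against 17.8 and 15.1 TPM (1.33 ± 0.070). Of 17 genes for NF-kB subunits and inhibitors, 10 rose and none fell, and 2 rose at least 2-fold. These were Nfkbiz and Nfkbia, with log2 fold changes of 3.48 and 2.37 after median centring. Bcl10, an adaptor upstream of NF-kB, rose by 0.87 and the subunit gene Rel by 0.78, while Nfkb1 lay at 51.5 and 52.3 TPM against 48.8 and 51.8 TPM.

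Genes for the machinery that degrades mRNA rose broadly in the MLKL cells, with 19 higher and 4 lower of 35 tested and a median of 0.23. The list holds the immediate early genes Zfp36 and Btg2. Without untreated replicate 1 or untreated replicate 2, 2 fell, and 1 on the 4 libraries alone. The relatives of Zfp36 that also bind AU-rich elements were higher: Zfp36l1 at 136 and 143 TPM against 39.8 and 39.8 TPM (1.79 ± 0.037), and Zfp36l2 at 283 and 303 TPM against 95.8 and 93.5 TPM (1.62 ± 0.041). Pnrc1, a decapping cofactor, had 179.9 and 177 TPM against 68.1 and 68.3 TPM (1.37 ± 0.056). The mRNA decay list split in the other sets, without centring. In siCTR cells 17 of 35 rose and 12 fell (median 0.03), and in noko cells 15 rose and 15 fell (median -0.01). All genes tested there had medians of -0.19 and -0.22. In the MLKL cells, 10 of 28 ubiquitin-editing, TRAF and Tribbles genes rose and 3 fell (15.8% and 16.5% over all genes tested). Trib1, a pseudokinase that targets C/EBP factors for degradation, had 152 and 162 TPM against 31.5 and 31.5 TPM (2.28 ± 0.043). The ubiquitin ligase gene Siah2 rose by 0.79.

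Of the 127 genes, 49 belonged to no functional list, and the following were picked from them after their values were seen. Ifrd1, a transcriptional coregulator, had 549.8 and 527 TPM with AP20187, against 196 and 199.8 TPM untreated (1.44 ± 0.050; limma, adjusted p = 8.44e-16). Mafk, a small Maf partner of CNC factors, had 38.2 and 45.2 TPM against 13.4 and 13.8 TPM (1.54 ± 0.077), and Ppp1r10, a nuclear regulator of protein phosphatase 1, 97.8 and 105 TPM against 33.4 and 34.1 TPM (1.56 ± 0.048). Bcl6, a transcriptional repressor best known in germinal centre B cells, had 36.1 and 37.7 TPM against 16.6 and 17.3 TPM. Npas4, a transcription factor known for its induction by calcium in neurons, had 6.35 and 7.74 TPM against 2.66 and 2.77 TPM. Lrp1, a large endocytic receptor, had 128 and 150.5 TPM against 66.4 and 71.0 TPM. That each of these genes rose and did not overlap between groups follows from how they were picked.

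Members of the Kruppel-like zinc finger family rose as a rule, with 9 of 11 tested higher, none lower and a median of 0.69; some of them are counted among the immediate early genes. Klf9, which is not, lay at 64.0 and 64.7 TPM against 39.2 and 39.5 TPM (0.70 ± 0.048). Among other transcription factors, Sox9, a chondrocyte and progenitor factor, had 131 and 152 TPM against 54.7 and 56.1 TPM (1.33 ± 0.061). Tgif1, a corepressor of TGF-beta signalling, had 289 and 299 TPM against 121 and 127 TPM (1.24 ± 0.048), and Twist1, a mesenchymal factor, had 56.2 and 59.9 TPM against 33.5 and 33.3 TPM (0.78 ± 0.048). Clock genes split: of 16 tested, 5 rose and 6 fell (15.8% and 16.5% over all genes tested). Nr1d1 (Rev-erb alpha), a repressor in the clock, rose by 1.09 ± 0.053 and Per1 by 0.64 ± 0.086, whereas Dbp, a clock output factor, had 4.01 and 4.61 TPM against 7.83 and 9.81 TPM.

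Calcium handling genes changed in both directions, where 15.8% of all genes tested rose and 16.5% fell. Of 35 tested, 8 rose and 7 fell, with a median of -0.03, and 4 fell without AP20187 replicate 1 and 3 on the 4 libraries alone. Only 1 member, Rcan1, rose at least 2-fold, with a log2 fold change of 3.55 after median centring. The pump gene Atp2a2, which returns calcium to the endoplasmic reticulum, lay at 199.8 and 198 TPM against 147 and 149.7 TPM (0.42 ± 0.031), and the channel kinase gene Trpm7 at 42.8 and 39.8 TPM against 52.2 and 51.4 TPM, lower by 0.32 on the log2 scale. The phosphodiesterase genes Pde4d and Pde4b, which break down cAMP, both fell. Pde4d had 10.7 and 11.2 TPM with AP20187, against 22.9 and 23.2 TPM untreated (-1.01 ± 0.061; limma, adjusted p = 2.37e-11), and Pde4b changed by -0.55 ± 0.050. The repressor gene Nfil3 rose by 0.80 and Gem, a small GTPase that limits voltage-gated calcium channels, by 0.58.

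Several genes with a cAMP response element (CRE) close to the start were among those that rose at least 2-fold. The palindrome TGACGTCA, which reads the same on both strands, occurs in 588 of 32851 RefSeq promoter windows of mouse genes (1.79%), each window running from 250 bases before to 50 after a start in GRCm38.p6. Among windows of the genes tested here the share is 3.12%, or 363 of 11616. Only 107 of the 170 genes could be matched to a window, so a share over the whole set is void. Windows of 3 genes that do hold it are shown because they stand for separate roles in the response: Errfi1, an EGF receptor inhibitor, Plk2, a kinase, and Ccnl1, a cyclin of splicing factors. The capitals mark the match, and a match is a description of the letters, not of binding.
Errfi1, chr4:150854820-150855119, + strand: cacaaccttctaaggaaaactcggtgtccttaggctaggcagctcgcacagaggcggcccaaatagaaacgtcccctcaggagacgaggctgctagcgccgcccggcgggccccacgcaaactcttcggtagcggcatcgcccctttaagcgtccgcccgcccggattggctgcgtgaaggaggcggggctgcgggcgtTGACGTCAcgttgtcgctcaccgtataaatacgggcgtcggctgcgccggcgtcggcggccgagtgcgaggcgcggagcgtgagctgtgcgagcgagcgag
Plk2, chr13:110394794-110395093, + strand: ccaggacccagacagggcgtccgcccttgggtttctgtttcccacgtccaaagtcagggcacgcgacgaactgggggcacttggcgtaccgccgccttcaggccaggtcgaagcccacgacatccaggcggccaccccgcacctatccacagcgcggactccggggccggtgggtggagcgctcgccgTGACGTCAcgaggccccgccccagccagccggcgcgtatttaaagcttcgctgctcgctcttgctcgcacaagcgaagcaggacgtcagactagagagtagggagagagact
Ccnl1, chr3:65958200-65958499, - strand: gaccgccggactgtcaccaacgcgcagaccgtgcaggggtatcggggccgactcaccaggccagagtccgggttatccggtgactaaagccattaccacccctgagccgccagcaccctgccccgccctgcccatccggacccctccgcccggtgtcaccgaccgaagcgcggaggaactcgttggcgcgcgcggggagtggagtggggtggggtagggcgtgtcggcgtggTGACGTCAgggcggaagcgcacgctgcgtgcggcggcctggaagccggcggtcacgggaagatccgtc
The matches begin 51, 62 and 18 bases before the start. Errfi1 lay at 200.01 and 201 TPM with AP20187 and at 17.4 and 18.6 TPM untreated (3.41 ± 0.033). Plk2 lay at 223 and 216 TPM against 81.7 and 82.2 TPM (1.41 ± 0.030), and Ccnl1 at 126 and 118 TPM against 45.9 and 45.9 TPM (1.39 ± 0.056).

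Metabolic genes differed by group. Of 20 glycolysis genes tested, 2 rose and 6 fell (15.8% and 16.5% over all genes tested), with a median of -0.04. On the 4 libraries alone, or with the trend on transcript length removed, 3 fell. Of 23 genes of cholesterol synthesis and uptake, 17 rose and none fell, with a median of 0.44. Insig1, which retains the sterol sensor in the endoplasmic reticulum, had 455 and 440.2 TPM with AP20187, against 174 and 176 TPM untreated (1.35 ± 0.025; limma, adjusted p = 1.35e-20), and Hmgcs1, an early enzyme of the pathway, had 378 and 362 TPM against 142 and 140.3 TPM (1.39 ± 0.039). Of 29 transporter genes, 19 rose and none fell, with a median of 0.20, and 12 rose on the 4 libraries alone. The phosphate transporter gene Slc20a1 rose by 0.83, the glucose transporter gene Slc2a1 by 0.70 and Slc3a2, the heavy chain of amino acid transporters, by 0.68. Sat1, which acetylates polyamines for export or breakdown, had 578 and 526 TPM against 152 and 143 TPM (1.90 ± 0.047), while Odc1, the enzyme that starts polyamine synthesis, had 474 and 452 TPM against 409 and 411 TPM (0.17 ± 0.031). Of the 12 polyamine genes tested, 3 rose, where 15.8% of all genes tested rose.

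Survival and stress genes showed changes on both sides. Of 26 tested genes of the Bcl2 family and inhibitors of apoptosis, 5 rose and 6 fell, with a median of -0.01. Over all genes tested, 15.8% rose and 16.5% fell. On the 4 libraries alone, 4 genes of this list rose and 2 fell, and 9 fell after quantile normalization. Mcl1, an anti-apoptotic member of the Bcl2 family with a short-lived product, had 188 and 177 TPM against 72.1 and 74.2 TPM (1.31 ± 0.054), while the pro-apoptotic Bmf had 0.449 and 0.593 TPM against 2.71 and 2.91 TPM (-1.33 ± 0.12) and the caspase gene Casp9 had 6.32 and 6.12 TPM against 9.16 and 8.91 TPM. Of 24 p53 targets and Gadd45 genes, 10 rose and 7 fell. Plk3, a stress-activated kinase, led them with 85.3 and 89.8 TPM against 10.8 and 9.63 TPM (2.98 ± 0.055), and Mdm2, the ubiquitin ligase of p53, had 249 and 239 TPM against 93.1 and 95.6 TPM (1.36 ± 0.036). Of 31 genes of the unfolded protein and integrated stress responses, 16 rose and none fell, with a median of 0.15; Atf4 rose by 0.75. Sqstm1, the autophagy receptor p62, rose by 0.70, and the chaperone gene Dnajb1 by 0.92.

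Membrane repair genes, which include annexins and ESCRT subunits, changed little in the main fit. Of 33 tested, 2 rose and 6 fell, with a median of -0.06. Over all genes tested, 15.8% rose and 16.5% fell, a share near that of the falls here. The 2 became 4 without AP20187 replicate 2 and 1 without untreated replicate 1. The 6 became 3 without untreated replicate 2 or with the trend on transcript length removed, 2 on the 4 libraries alone, 11 after median centring and 14 after quantile normalization. Vps37b, a subunit of ESCRT-I, was higher at 72.2 and 80.6 TPM against 51.6 and 49.9 TPM (0.58 ± 0.053).

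Among genes for small GTPases and their effectors, Rhob, an endosomal GTPase with a single-exon gene, had 384 and 429 TPM with AP20187, against 75.1 and 81.0 TPM untreated (2.36 ± 0.051). Rnd1, a GTPase that loosens the actin cytoskeleton, rose by 1.11. The Cdc42 effector genes moved apart: Cdc42ep2 had 14.4 and 18.03 TPM against 53.9 and 52.5 TPM (-1.67 ± 0.074; limma, adjusted p = 9.42e-14), whereas Cdc42ep3 had 134 and 129 TPM against 60.7 and 61.0 TPM (1.10 ± 0.060).

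The genes that fell most included developmental regulators and chromatin proteins. Cbx2 (chr11:119022962-119031270, + strand, mm10), a chromobox subunit of Polycomb repressive complex 1, had 5.30 and 5.94 TPM with AP20187, against 20.7 and 21.2 TPM untreated (-1.73 ± 0.077; limma, adjusted p = 8.61e-14). Its neighbour on chromosome 11, Cbx8, had 7.72 and 7.88 TPM against 17.4 and 16.0 TPM (-1.01 ± 0.13). Over 33 Polycomb and histone demethylase genes, 8 rose and 7 fell (15.8% and 16.5% over all genes tested), with a median of 0.02. Both counts became 5 on the 4 libraries alone, and 5 rose without untreated replicate 1. Kdm6b, a demethylase of the histone mark that Polycomb sets, had 20.8 and 23.8 TPM against 9.91 and 10.6 TPM (1.04 ± 0.088).

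Hox genes, which give cells their position along the body axis, fell: 10 of 17 tested were lower and none higher, with a median of -0.33. Without untreated replicate 2, or on the 4 libraries alone, 6 were lower. Hoxa2 had 5.996 and 5.65 TPM against 15.9 and 17.3 TPM (-1.37 ± 0.12), Hoxa6 had 5.26 and 4.99 TPM against 11.5 and 13.8 TPM (-1.15 ± 0.27) and Hoxa5 had 21.7 and 23.5 TPM against 40.6 and 37.9 TPM (-0.77 ± 0.053). Hoxa3 had 10.8 and 13.6 TPM against 20.6 and 21.3 TPM. These genes lie together on chromosome 6, and in the mm10 annotation Hoxa3 (chr6:52169062-52213336) spans Hoxa5 and Hoxa6 on the same strand, so reads between these rows may be shared. Hoxc6 lay at 12.1 and 10.7 TPM against 9.43 and 10.7 TPM and did not pass.

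Numbered Zfp genes, mostly DNA-binding repressors in large paralogous clusters whose short reads can be split between copies, showed a shift to lower levels. Of 269 tested, 99 fell and 29 rose, with a median of -0.14, and 59 fell without untreated replicate 2 and 52 on the 4 libraries alone. Against the trend, Zfp948 had 63.2 and 57.0 TPM against 27.7 and 27.2 TPM (1.10 ± 0.070) and Zfp655 rose by 0.90.

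Inhibitors of differentiation fell sharply within a BMP list whose other changes were mostly rises. Id3 had 119 and 135 TPM with AP20187, against 271 and 274 TPM untreated (-1.10 ± 0.069; limma, adjusted p = 3.87e-11), and Id2 had 62.3 and 57.1 TPM against 125 and 121 TPM (-1.03 ± 0.044). Both encode proteins that sequester bHLH factors and are direct targets of BMP signalling. Of the 17 genes of this list, 10 rose and 3 fell, and 6 rose without AP20187 replicate 2 or on the 4 libraries alone. Over all genes tested, 15.8% rose and 16.5% fell, a share near that of the falls here. In the Notch and Wnt pathways the ligand gene Jag1 rose by 1.09 and the receptor gene Fzd5 by 1.77, and the receptor gene Fzd2 had 20.9 and 28.7 TPM against 36.4 and 38.7 TPM (-0.60 ± 0.097). Txnip, an inhibitor of thioredoxin and of glucose uptake, had 45.0 and 44.5 TPM against 86.7 and 87.2 TPM, and Medag, an adipogenesis gene, had 77.0 and 76.3 TPM against 157 and 157 TPM (-1.02 ± 0.031).

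Several lists of constant cell functions held small falls, where 16.5% of all genes tested fell. Of 74 nuclear genes of oxidative phosphorylation, 31 fell and none rose, with a median of -0.13; Ndufb7, a subunit of complex I, had 164 and 177 TPM against 227 and 211 TPM. Of 75 ribosomal protein genes, 14 fell and none rose, a share of 18.7% that is near that of all genes, and of 36 proteasome genes, 11 fell and none rose. These counts moved with 1 library and with transcript length. The 31 became 15 without untreated replicate 2, 18 without AP20187 replicate 1 and 19 without untreated replicate 1, 50 after quantile normalization, and 12 with the trend on transcript length removed. The 14 became 4 without either untreated replicate, 5 without AP20187 replicate 1 and 0 with the length trend removed, and the 11 proteasome falls became 4 and 3 without untreated replicates 1 and 2, 7 without AP20187 replicate 2, 20 after quantile normalization, and 3 with the length trend removed or on the 4 libraries alone. Of 34 mitosis genes 12 fell and 5 rose (3 without AP20187 replicate 1), with 7 falls left without AP20187 replicate 1 or untreated replicate 2, 7 with the length trend removed and 5 on the 4 libraries alone; Ccna2 had 151 and 148 TPM against 177 and 182 TPM and Plk1 had 56.7 and 58.6 TPM against 67.0 and 65.9 TPM. Fitted on the 4 libraries alone, 18 oxidative phosphorylation and 3 ribosomal protein genes fell. Against parental cells, the response was lower for 18 of 76 oxidative phosphorylation genes, where 967 of all 11931 genes were lower. It was lower for 1 of 75 ribosomal protein genes and 5 of 36 proteasome genes. Of 34 mitosis genes it was lower for 6 and higher for 3.

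Gene structure differed between strong and weak changes, given here as a description. Genes that rose at least 2-fold had a median span of 8400 bp and 4 exons, and genes that fell by at least 0.5 on the log2 scale had 8354 bp and 3.5 exons, against 22301.5 bp and 9 exons over all genes tested. In contrast, the 1838 genes that rose at all had a median span of 39958 bp and the 1919 that fell 13244 bp. The 170 genes that rose at least 2-fold include the 28 best known immediate early genes and 15 small RNA rows. Of the 161 of them that were matched, 23 had a single exon (14.29%, against 4.95% over all genes tested). The part of these rows in the medians was not tested. Of genes with over 20 exons, 31.5% rose and 5.3% fell, and of those with 2 to 3 exons 15.3% rose and 26.4% fell. Spans and exon numbers are those of GENCODE vM21 on mm10, with 96.0% of the tested genes matched by symbol.

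**Figure D4:**
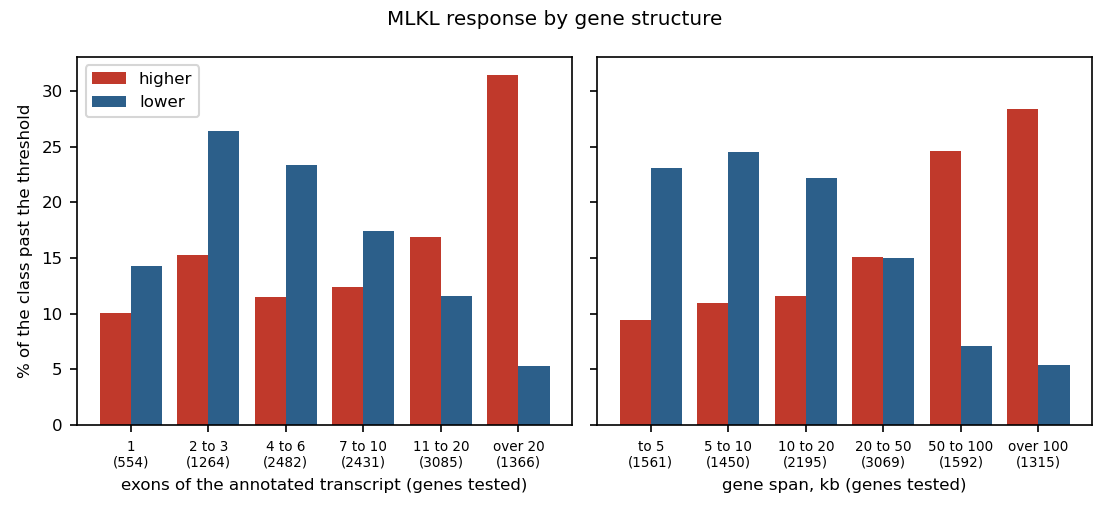
Percentage of genes that rose (red) and fell (blue) after AP20187 in classes of exon number of the annotated transcript (left) and of gene span in kb (right), with the number of genes tested in parentheses. Long genes and genes with many exons rose more often than they fell: over 100 kb, 28.4% rose and 5.4% fell, while up to 5 kb, 9.4% rose and 23.1% fell.

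Targets of YAP, the transcriptional effector of the Hippo pathway that binds DNA through TEAD factors, were followed in more depth because their response depended on the set of libraries. Of 24 YAP target and Hippo genes, 13 rose and 5 fell in the MLKL cells (15.8% and 16.5% over all genes tested), with a median of 0.14. Without AP20187 replicate 1 or untreated replicate 2, 3 fell, and 8 rose and 1 fell on the 4 libraries alone. The TEAD motif GGAATG, searched on both strands, occurs in 4817 of 32851 promoter windows (14.66%). It occurs in 1409 of the 11616 windows of genes tested here (12.13%). The genes shown were picked by name, and windows were printed only where they hold a match, so they give no share for the list. Ctgf was not matched to a window. Windows of Ankrd1 and Amotl2, members of the list, and of Cyr61, a YAP target counted here among the immediate early genes, are shown with the match in capitals.
Cyr61 (RefSeq name Ccn1), chr3:145649936-145650235, - strand: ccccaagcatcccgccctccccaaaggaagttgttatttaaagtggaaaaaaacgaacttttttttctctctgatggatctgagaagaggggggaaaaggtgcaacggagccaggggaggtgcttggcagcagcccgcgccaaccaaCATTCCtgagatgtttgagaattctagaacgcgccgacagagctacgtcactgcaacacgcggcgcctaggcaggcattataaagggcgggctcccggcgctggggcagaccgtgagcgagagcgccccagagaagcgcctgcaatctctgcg
Ankrd1, chr19:36119795-36120094, - strand: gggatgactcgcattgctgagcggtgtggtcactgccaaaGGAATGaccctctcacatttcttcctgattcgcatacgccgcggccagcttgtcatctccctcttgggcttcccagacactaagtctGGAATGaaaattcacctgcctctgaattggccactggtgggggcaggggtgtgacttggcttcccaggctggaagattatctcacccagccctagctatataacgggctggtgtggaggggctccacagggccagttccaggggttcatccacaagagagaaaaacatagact
Amotl2, chr9:102717554-102717853, + strand: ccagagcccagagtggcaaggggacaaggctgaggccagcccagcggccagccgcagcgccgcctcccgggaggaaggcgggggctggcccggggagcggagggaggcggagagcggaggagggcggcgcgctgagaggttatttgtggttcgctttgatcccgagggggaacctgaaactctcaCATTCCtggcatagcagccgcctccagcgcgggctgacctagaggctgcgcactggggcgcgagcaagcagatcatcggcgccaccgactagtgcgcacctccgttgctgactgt
Cyr61 has 1 match, 103 bases before the start, Ankrd1 has 2, the nearer 123 bases before, and Amotl2 has 1, 65 bases before.

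Cyr61 encodes a matricellular protein and Ctgf its relative; both also count as immediate early genes. In the MLKL cells Ctgf lay at 182 and 185 TPM with AP20187 and at 25.1 and 25.2 TPM untreated (2.82 ± 0.029). Ankrd1, a nuclear ankyrin repeat protein, had 135 and 126 TPM against 35.03 and 33.9 TPM (1.89 ± 0.051), Amotl2, a junctional regulator of YAP, had 70.8 and 78.2 TPM against 34.4 and 36.1 TPM (1.06 ± 0.052), and the kinase gene Lats2 had 24.1 and 24.6 TPM against 15.3 and 15.5 TPM (0.63 ± 0.082). Yap1 itself lay at 74.3 and 74.97 TPM against 74.7 and 75.3 TPM.

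In the siCTR and noko sets these genes lay higher before treatment, and Ctgf, Amotl2 and Lats2 fell with AP20187. Ctgf lay at 83.4 and 83.9 TPM with AP20187 and at 453 and 449 TPM untreated in siCTR cells, and at 67.6 and 65.6 TPM against 219 and 220.0 TPM in noko cells. Amotl2 lay at 31.1 and 31.2 TPM against 129 and 136 TPM in siCTR cells and at 40.02 and 39.94 TPM against 137 and 135 TPM in noko cells. The response of Ctgf was higher in the MLKL cells by 5.24 ± 0.041 than in siCTR cells and by 4.53 ± 0.041 than in noko cells, and that of Amotl2 by 3.11 ± 0.074 and 2.80 ± 0.074 (limma, all adjusted p under 0.05). Cyr61 rose in all 3 sets. The part of the untreated level in these responses was not tested.

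**Figure D5:**
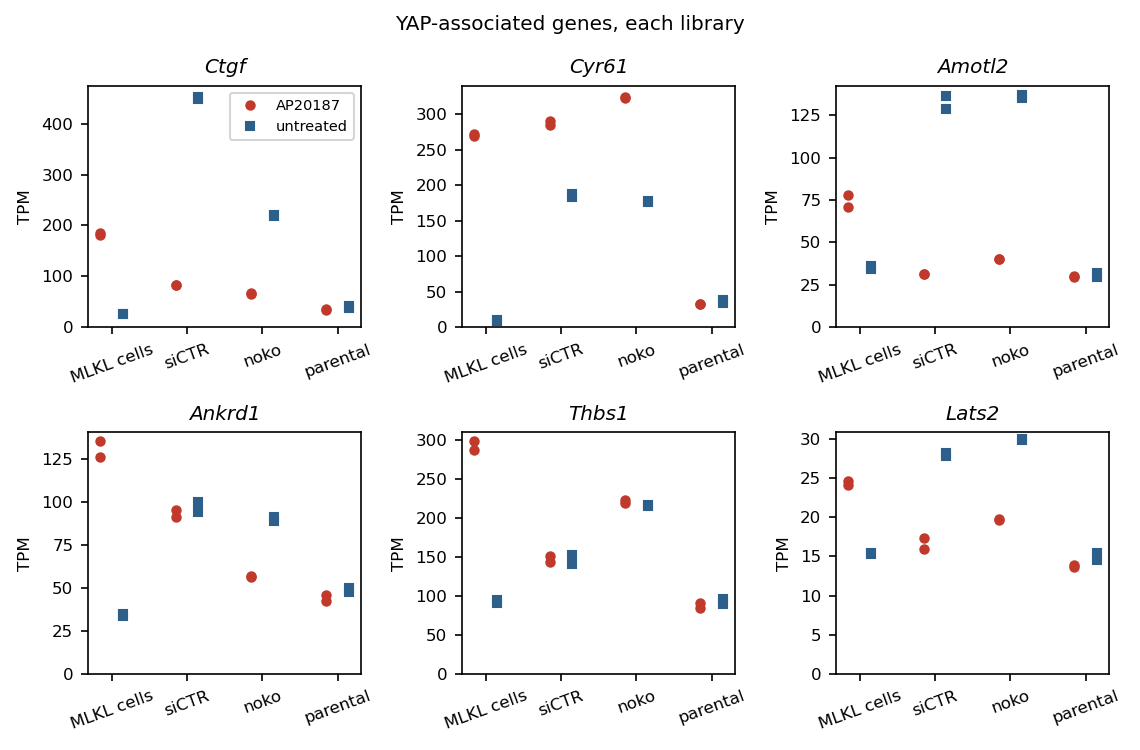
TPM of 6 YAP-associated genes in each AP20187 library (red circles) and untreated library (blue squares) of the MLKL cells, the siCTR and noko sets and parental cells. Untreated Ctgf lies at 25.1 and 25.2 TPM in MLKL cells, against 453 and 449 TPM in siCTR cells, and AP20187 libraries are higher than untreated ones for all 6 genes only in the MLKL cells.

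Most strong changes recurred in the siCTR and noko sets. Of the 162 genes that rose at least 2-fold and were tested in siCTR cells, 119 also rose at least 2-fold there, which is 73.5% of the MLKL list and 49.6% of the 240 siCTR genes, and 145 rose at all (89.5%). In noko cells it was 113 of 168, or 67.3%, and 54.6% of the 207 noko genes. Over all genes tested there, 2.21% of 11410 rose at least 2-fold in siCTR cells and 13.7% rose at all, and 1.87% of 11682 rose at least 2-fold in noko cells, where 10.6% rose at all. Rises of any size recurred less often. Without centring, 923 of 1811 also rose in siCTR cells (51%) and 343 fell there. In noko cells 773 of 1831 rose (42.2%) and 489 fell. Tested in all 3 sets, 107 genes rose and 14 fell at least 2-fold in each. Falls of at least 2-fold made up 2.34% of all genes in siCTR cells and 2.38% in noko cells. In those sets the median of all genes lay at -0.19 and -0.22, so that falls outnumbered rises, with 1568 higher and 5915 lower genes in siCTR cells and 1233 and 6482 in noko cells. After median centring these were 3198 and 3095 in siCTR cells and 3223 and 2719 in noko cells. The lists of Hox genes had medians of -0.66 in siCTR cells and -0.61 in noko cells, with 14 of 17 lower and 13 of 16 lower, and none higher, before centring, where 51.8% and 55.5% of all genes were lower. Over all genes, the response of the MLKL cells differed from that of parental cells for 20.5%, from siCTR cells for 43.6% and from noko cells for 44.4%. Small RNA and ribosomal RNA rows made up 6.78% of the total in untreated siCTR replicate 2, against 0.881% to 2.36% in the other libraries used here. Without that library 1387 genes were higher and 5477 lower in siCTR cells, Ctgf changed by -2.42 and Amotl2 by -2.01.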

How the data were processed

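The deposited values are TPM per gene symbol, with 19407 rows and 51 library columns for mouse, quantified by the authors with Salmon on build mm10, per the submitters' processing notes. Not given in the sources used here are the Salmon version, its index, and how gene values were made from transcripts. Libraries were grouped by their labels. A count test was planned had the values been counts; because they are TPM, log2(TPM + 1) was fitted with limma 3.58.1 (trend; R 4.3.3, with version 1.17.8 of data.table) in a single model over all 35 NIH3T3 libraries in 18 groups, with 17 residual degrees of freedom. Genes with at least 1 TPM in at least 2 libraries of a comparison were tested two-sided. The threshold was 0.05 for p adjusted by Benjamini-Hochberg over all of them. The fit was tested on simulated data.

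The members, the 58 gene lists and the tests were chosen with earlier results of these data known. Outside the best known immediate early genes, the rule for naming took the 24 largest rises and 18 largest falls with means of at least 5 TPM that did not overlap, up to 4 members past the threshold per list and up to 2 that did not pass, and the 6 largest differences each way from the other cell sets. The text describes a selection of these genes and lists, and some items are not reported here; Il11, Il6, Vegfa, Fgf2, Has2, F3, Plaur, Dbp and the genes said to be in no list were added after their values were seen. Alternatives were a pseudocount of 0.1 TPM, quantile normalization, median centring, removal of 451 small RNA and ribosomal RNA rows, a fit without the filter, a fit on the compared libraries alone, a replicate block, leaving out each library and, added after seeing the data, removal of the trend with transcript length. Gene structure came from GENCODE vM21 and promoter windows from RefSeq GRCm38.p6. Figures were drawn with Python 3.11.15, numpy 2.4.6, pandas 2.3.3 and matplotlib 3.10.9. The precision of each value is limited by 2 libraries per group.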

Additional observations from a re-analysis of the deposited data

Results flagged for a closer look

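The response to AP20187 was tested for differences between the MLKL cells and each other set, and the difference passed (limma, Benjamini-Hochberg adjusted p under 0.05) for 2442 genes against parental cells, 5157 against siCTR cells and 5297 against noko cells. Against siCTR cells 4282 were higher and 875 lower, but 1421 and 2430 after median centring, and against noko cells 4701 and 596, but 1367 and 2492. Single genes are given here where the responses also pointed in opposite directions, each past the threshold, before and after median centring; all values are differences of log2 fold changes, MLKL cells minus the other set. Genes that rose in the MLKL cells and fell in the other set were Ctgf (5.24 against siCTR, 4.53 against noko), Amotl2 (3.11 and 2.80), Lats2 (1.35 and 1.21), Col6a3 (0.95 and 1.06) and, against noko cells only, Ankrd1 (2.55). Genes that fell in the MLKL cells and rose in the other set were Ccng2, an atypical cyclin (-2.12 against siCTR, -2.43 against noko), Cebpd (-1.52 and -0.99) and Foxf2, a forkhead factor (-1.11 and -0.75). In each pair the siCTR value stands before the noko value. Ccng2 lay at 21.7 and 19.5 TPM with AP20187 and at 30.4 and 31.1 TPM untreated in the MLKL cells, and at 41.3 and 43.3 TPM against 13.2 and 14.2 TPM in siCTR cells. The noko rise of Cebpd did not pass without noko AP20187 replicate 1 (0.23). No cause was tested.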

How the results depend on the processing

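Btc, Snord19 and Clcf1-pold4 were not followed through the alternatives, and genes without a matched transcript were not fitted with the length trend removed. For the other genes named by their MLKL response, the direction and the call held under every alternative run, with these exceptions. Mlkl passed as lower after median centring and quantile normalization. Fgf2 and Csf1r, which did not pass, changed sign as libraries were left out (-0.064 to 0.060 and -0.070 to 0.123). Of 2 genes not described above, Psmd7 missed the threshold on the 4 libraries alone and Per2 in 3 alternatives. In parental cells the calls of Cebpd, Inhba, Plk3, Ccl2, Lif, Rgs16, Cxcl1 and Txnip were each lost in at least 1 alternative. Counts moved more. In the MLKL cells, 68 genes fell at least 2-fold with a pseudocount of 0.1, 1109 rose and 978 fell on their own libraries alone, and leaving out 1 library each gave 1275 to 1540 rises, 1131 to 1627 falls, and 16 to 30 falls of at least 2-fold. In parental cells the higher genes numbered 7 after quantile normalization, 1 without small RNA rows, 5 without the filter and 1 on their own libraries (4 lower), and leaving out 1 library gave 0 to 2 higher and 9 to 19 lower. Higher and lower genes in siCTR cells numbered 2468 and 3737 after quantile normalization, 3198 and 3095 after centring, and 3206 and 2789 with the length trend removed, and in noko cells 2525 and 3706, 3223 and 2719, and 3188 and 2605. Differences from parental cells gave 1610 lower genes after quantile normalization. Differences from siCTR cells gave 1684 and 1389, 1421 and 2430, and 1455 and 2008 under the same 3 settings, and from noko cells 1737 and 1412, 1367 and 2492, and 1483 and 2017. In siCTR cells Thbs1 turned to -0.0034 after quantile normalization and -0.033 without small RNA rows, ranged from -0.048 to 0.065 as libraries were left out, and turned to -0.0062 in noko cells after quantile normalization; Ankrd1 turned to 0.12 after centring and 0.16 with the length trend removed. The cause was not tested. Same-numbered replicates did not deviate together (correlation of -0.016), and with the replicate block 1812 genes rose and 1898 fell in the MLKL cells. TPM give no depth, so no limit of detection can be stated.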
